A study of Rattus norvegicus with 16 samples.

Results

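The late phase of monoiodoacetate (MIA) induced knee osteoarthritis was followed by setting the 4 arrays of rats killed 28 days after the injection against the 4 arrays of rats killed at day 14. These 8 arrays were picked by their titles out of the 16 of the series, and all 36685 probe sets of the Affymetrix Rat Gene 2.0 ST array were compared. Male Wistar rats of both groups had received a single dose of 3 mg MIA into the knee joint, and the other 8 arrays came from rats at day 2 after the same dose and from intact rats that were not injected. Each sample held meniscus and articular cartilage of tibia and femur with small parts of the joint capsule and bone, and per the methods the RNA of a pair of rats was pooled for each array. Rats at day 28 differed from those at day 14 in the time since injection and in age, which cannot be told apart, and no arrays of saline-injected or age-matched untreated rats were analysed here. Among markers of the labelled tissue, aggrecan (Acan) was measured at 12.24, 12.16, 12.16 and 11.82 log2 signal on the day 28 arrays and at 11.62, 11.44, 11.40 and 11.62 on the day 14 arrays. Lubricin (Prg4), counted here as a marker of both cartilage and synovial lining, had 12.95 ± 0.08 at day 28 and 12.83 ± 0.13 at day 14 (mean ± SD, n = 4 arrays each). The mean of 27 measured cartilage markers varied more between arrays, from 8.17 to 8.94 at day 28 and from 7.51 to 8.11 at day 14.

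MIA blocks glycolysis at glyceraldehyde-3-phosphate dehydrogenase and kills chondrocytes, so that a single injection leads to loss of cartilage matrix, exposure of bone and lasting pain. The knee joint also holds fat tissue, whose adipocytes store triacylglycerol in droplets and release adipokines, and muscle and bone marrow lie next to the dissected parts. Cartilage has no blood vessels, and its cells use the low-oxygen response, in which hypoxia-inducible factors raise glycolysis, pH regulation and vessel growth signals.

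Between day 28 and day 14 few transcripts passed the threshold of an adjusted p below 0.05. Genes of fat cells led the decreases at day 28, while 5 of 20 measured genes of glycolysis and the low-oxygen response, the orphan receptors Nr4a2 and Nr4a3 and the bone and matrix proteins Tnfrsf11b, P3h2 and Cemip were higher at day 28. At an adjusted p below 0.05 (limma over all 16 arrays, Benjamini-Hochberg over all probe sets), 69 probe sets were higher at day 28, which is 0.188% of those tested, and 100 were lower, which is 0.273%. Over 2-fold, 11 of these were higher and 43 lower. At an unadjusted p below 0.05 the same fit had 2122 probe sets higher and 2047 lower. Of the 169 probe sets, 140 carried exactly 1 gene symbol (62 genes higher, 78 lower), 5 carried several and 24 none. All 169 had the 4 day 28 arrays beyond the 4 day 14 arrays. Over all probe sets this held for 2800, or 7.63% (1456 above and 1344 below). The median log2 difference (day 28 minus day 14, as in all differences below) over 18166 genes was 0.02, and 54.5% of them differed upward.

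**Figure D1:**
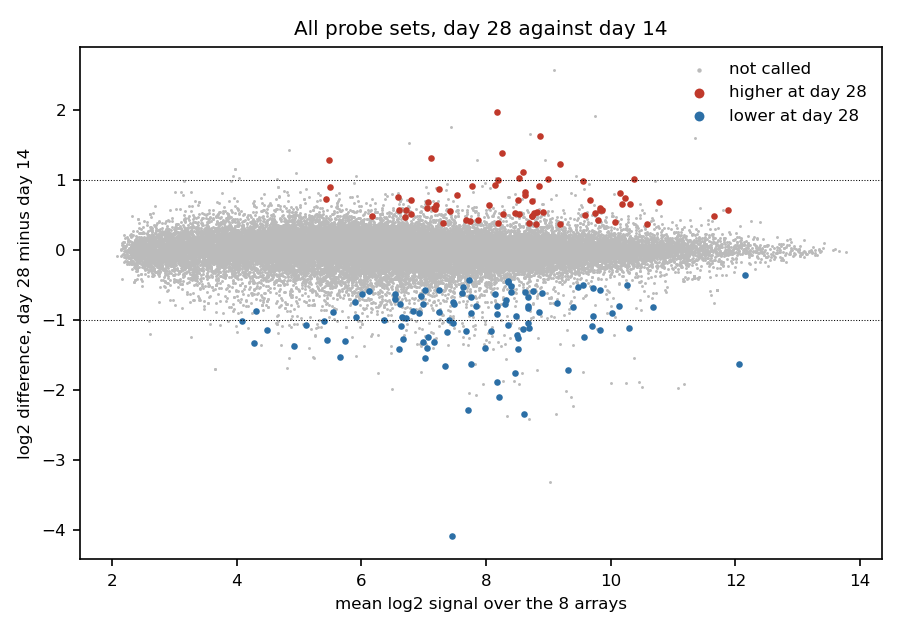
Each point is 1 probe set, with its mean log2 signal over the 8 arrays on the x axis and its log2 difference, day 28 minus day 14, on the y axis; dotted lines mark a 2-fold difference. The 69 probe sets called higher (red) reach up to 1.97 and the 100 called lower (blue) down to -4.08, with 43 of the lower and 11 of the higher beyond 2-fold.

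The number of calls rested on which arrays entered the fit. With only the 8 arrays of days 28 and 14 in the model, 9 were called higher and 18 lower, of which 9 and 16 were also called with 16 arrays. Leaving out 1 of the 8 arrays gave 25 to 67 higher and 44 to 100 lower probe sets, and no call changed its direction. There were 29, 45, 45 and 40 higher probe sets without day 28 replicate 1, 2, 3 and 4, and 67, 38, 34 and 25 without day 14 replicate 1, 2, 3 and 4. Lower probe sets numbered 57, 83, 64 and 55 without the same day 28 arrays, and 63, 100, 61 and 44 without the day 14 arrays, so that day 14 replicate 4 weighed most on both counts. The call was made in every one of these 8 fits for 22 of the 69 higher and 38 of the 100 lower probe sets, and in none of them for 7 higher and 1 lower. Against intact rats far more was called, 14.2% of the probe sets at day 28 and 15.1% at day 14, both sets of arrays being compared with the same 4 intact arrays.

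Genes of fat cells were lower at day 28, most of all the markers of the fat cell itself. Of 15 measured adipocyte markers, 10 were lower and none higher, all 15 differences were negative and the median was -1.40. In 14 of the 15 the day 28 arrays lay below all day 14 arrays. The mean log2 signal of these 15 genes was 6.79, 6.79, 7.17 and 6.74 on the day 28 arrays, against 8.59, 8.14, 8.09 and 8.03 on the day 14 arrays, with no overlap, while intact arrays had 9.51 to 10.40 and day 2 arrays 8.48 to 8.88. In bulk tissue, fewer fat cells and less of these RNAs per cell cannot be told apart.

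Among the secreted products of fat, adiponectin (Adipoq), the hormone that raises insulin sensitivity, gave 7.07, 7.34, 8.34 and 7.01 log2 signal at day 28, against 10.31, 9.54, 9.80 and 9.51 at day 14. The groups did not overlap, and the difference of -2.35 (SE 0.28, adjusted p = 0.0020) is 5.10-fold lower. Adipsin (Cfd), the complement factor D that fat cells release, had 7.01, 7.33, 7.64 and 6.94 at day 28 and 9.11, 8.87, 9.20 and 9.27 at day 14. This difference of -1.88 (SE 0.16, adjusted p = 0.00016) had the smallest adjusted p among fat genes. Resistin (Retn), an adipokine of rodent fat, was lower by a difference of -1.41 (adjusted p = 0.0055) and retinol binding protein 4 (Rbp4), the carrier of retinol in blood, by -1.15 (adjusted p = 0.021). Leptin (Lep), the satiety hormone, did not pass the test, with 5.70, 5.65, 5.65 and 5.55 at day 28 and 6.43, 6.08, 6.00 and 6.04 at day 14 (difference -0.50, adjusted p = 0.44). Of 16 adipokines measured, these 4 were lower and none higher, with a median difference of -0.26.

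Proteins of the lipid droplet followed the same direction. Of 17 measured genes of lipid droplets and lipolysis, 4 were lower and none higher, 11 lay below day 14 on every array and the median was -0.53. Cidec, which fuses droplets into large ones, measured 6.70, 6.10, 6.81 and 6.44 at day 28 against 8.55, 8.04, 8.12 and 7.96 at day 14 (difference -1.66, SE 0.21, adjusted p = 0.0031). Perilipin 1 (Plin1), which coats the droplet and guards it from lipases, had 7.13, 7.24, 7.53 and 7.26 at day 28 and 9.25, 8.51, 8.75 and 8.27 at day 14 (difference -1.40, SE 0.21, adjusted p = 0.0058). In both genes the groups stood apart by a wide gap. The other 2 were Cidea, a droplet protein of brown fat (-1.16, adjusted p = 0.0064), and Aqp7, the channel through which fat cells release glycerol (-1.54, adjusted p = 0.0048). The lipases that empty the droplet did not pass the test, although every day 28 array lay below every day 14 array for each. Hormone-sensitive lipase (Lipe) differed by -0.62 (adjusted p = 0.079), adipose triglyceride lipase (Pnpla2) by -0.53 (adjusted p = 0.068) and monoglyceride lipase (Mgll) by -0.56 (adjusted p = 0.10).

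Within the synthesis of fatty acids and triacylglycerol, 4 of 18 measured genes were lower and none higher, with a median of -0.19. Thrsp, a lipogenic protein of fat and liver, had 6.31, 6.60, 6.96 and 6.44 at day 28 and 9.37, 8.69, 8.76 and 8.61 at day 14 (difference -2.28, SE 0.26, adjusted p = 0.0012). Gpd1, which makes glycerol 3-phosphate for the backbone of triacylglycerol, had 6.76, 7.04, 7.45 and 7.39 at day 28 and 9.30, 8.82, 10.39 and 8.55 at day 14 (difference -2.10, SE 0.32, adjusted p = 0.0072). Day 14 replicate 3 was the highest array for Gpd1, and without it the difference was -1.73 and still called. Pck1, which supplies glycerol in fat cells and glucose in liver, differed by -1.17 (adjusted p = 0.016) and Acsl1, which activates long-chain fatty acids, by -1.08 (adjusted p = 0.017). Enzymes of the first steps of fatty acid synthesis overlapped between the groups, with 8.26 ± 0.04 at day 28 and 8.34 ± 0.07 at day 14 for acetyl-CoA carboxylase (Acaca) and 9.64 ± 0.14 at day 28 and 9.60 ± 0.11 at day 14 for ATP citrate lyase (Acly).

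Of the genes of fatty acid uptake, 2 of 9 were lower. The fatty acid binding protein Fabp4, the main carrier inside fat cells, had 7.72, 7.26, 7.71 and 7.67 at day 28 against 9.59, 9.13, 9.15 and 9.52 at day 14 (difference -1.76, SE 0.17, adjusted p = 0.00044). Lipoprotein lipase (Lpl), which frees fatty acids from lipoproteins, differed by -0.90 (SE 0.16, adjusted p = 0.024). None of 13 adipogenic transcription factors was called. Pparg, the receptor that drives fat cell formation, still had every day 28 array (7.17, 7.22, 7.43 and 7.17) below every day 14 array (8.74, 8.20, 8.00 and 7.83), with a difference of -0.95 and an adjusted p of 0.079, whereas Cebpa overlapped (difference -0.15). Outside the lists, the retinol binding protein Rbp7, found in fat and its vessels, was lower by a difference of -1.31 (adjusted p = 0.00099), Cdo1, which breaks down cysteine in fat and liver, by -1.11 (adjusted p = 0.0047) and Abcd2, a peroxisomal transporter of very long fatty acids, by -0.95 (adjusted p = 0.039). A list of 34 measured genes was drawn from those that the study names in its text, only a part of the genes it picked on these arrays. Their direction is therefore not independent evidence. Of these, 6 were lower at day 28 and none higher, namely Adipoq, Aqp7, Cfd, Fabp4 and Pck1 and, outside fat, Tlr1, and the triacylglycerol enzyme Dgat2, also among them, differed by -0.94 (adjusted p = 0.079).

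**Figure D2:**
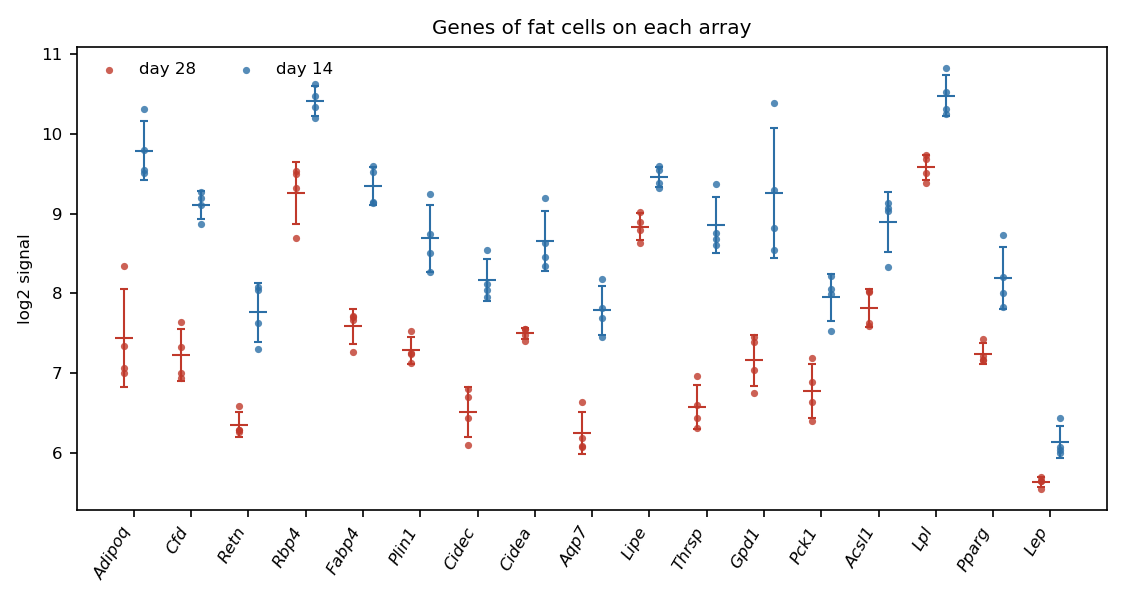
Log2 signal of 17 genes of fat cells on each of the 4 day 28 arrays (red) and the 4 day 14 arrays (blue); points are arrays, the horizontal bars are means and the error bars SD. Day 28 lies below day 14 without overlap for all 17 genes, of which Lipe, Pparg and Lep did not pass an adjusted p of 0.05.

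Calls for Adipoq, Thrsp, Gpd1, Cfd, Fabp4, Cidec, Cidea, Plin1, Aqp7, Retn, Rbp7 and Cdo1 were made in each of the 8 fits without 1 array. Rbp4 was called in 5 of these fits, Pck1 and Acsl1 in 4 each, Lpl in 3 and Abcd2 in 1. The adjusted p was up to 0.069 for Pck1, 0.083 for Rbp4 and 0.080 for Lpl, without day 14 replicate 4. It was up to 0.067 for Acsl1 and 0.14 for Abcd2, without day 28 replicate 1.

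Markers of neighbouring muscle and marrow also varied between single arrays, and their part in the results was not tested beyond the values given here. The mean log2 signal of 28 contractile proteins of skeletal muscle was 6.49, 7.47, 8.00 and 8.29 on the day 28 arrays, against 7.99, 8.60, 10.49 and 8.02 on the day 14 arrays, so that day 28 replicate 1 held the least and day 14 replicate 3 the most. Of the 28 genes 27 differed downward, with a median of -1.22, 7 did not overlap and none was called. The parvalbumin gene (Pvalb), which buffers calcium in fast fibres, had 5.33, 7.58, 7.48 and 8.23 at day 28 and 8.73, 9.43, 11.39 and 8.56 at day 14 (difference -2.38, SE 0.89, adjusted p = 0.32). Calsequestrin 1 (Casq1), the calcium store of the same fibres, differed by -2.41 (SE 0.94, adjusted p = 0.34). These differences are larger than any called in fat, where Adipoq had the largest at -2.35, but the spread between arrays of a group is wider too. Myh7, the slow-fibre myosin, differed by -0.51 (adjusted p = 0.78).

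Neutrophil markers ranged from 6.70 to 9.41 in mean log2 signal over the day 28 arrays and from 7.64 to 9.99 over the day 14 arrays (17 genes, median difference -0.77, none called), and erythroid and marrow markers from 6.92 to 8.60 at day 28 and from 7.01 to 9.33 at day 14 (15 genes, median difference -0.36, none called). Downward differences were found in 16 of the 17 neutrophil genes and in all 15 erythroid and marrow genes. Replicate 2 was the highest array of both groups in both lists. With the muscle mean of each array as a covariate, 22 calls were higher and 39 lower, and 9 of the 15 adipocyte markers were still called lower, Pck1 (adjusted p = 0.072) being the one lost, at a median difference of -1.34 over the 15. With the mean of the neutrophil and erythroid markers as the covariate, 58 were higher and 127 lower. Without day 28 replicate 1 and day 14 replicate 3 together, 7 were higher and 29 lower, a setting added after the muscle values were seen.

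**Figure D3:**
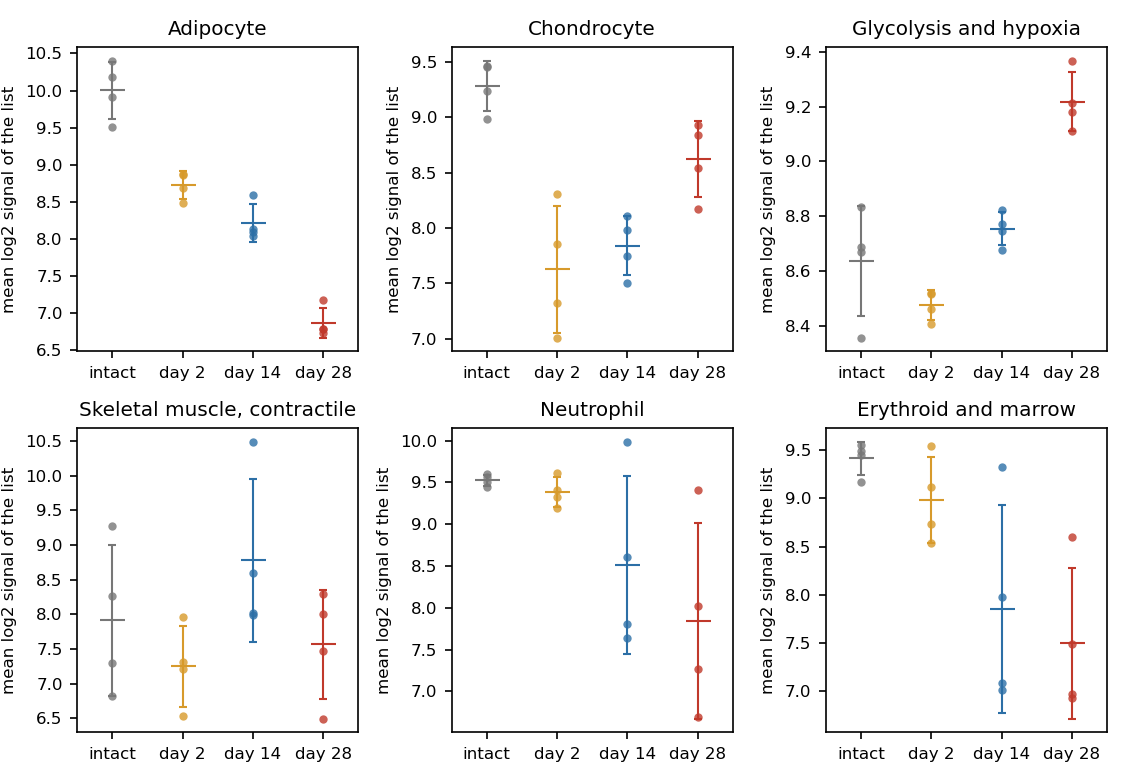
Mean log2 signal of 6 gene lists on each array (points) for intact rats and days 2, 14 and 28, with group means (horizontal bars) and SD (error bars), n = 4 arrays per group. Adipocyte markers at day 28 lie below those at day 14 and the chondrocyte list and the glycolysis and hypoxia list lie above, all without overlap, whereas the muscle, neutrophil and marrow lists spread widely within days 14 and 28.

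Carbonic anhydrase 3 (Car3), an enzyme abundant in both fat and slow muscle, was lower at day 28, with 10.24, 11.27, 12.16 and 11.27 against 12.87, 12.81, 13.15 and 12.65 at day 14 (difference -1.63, SE 0.27, adjusted p = 0.013). It was the only one of 19 genes of muscle energy metabolism to be called, and with the muscle covariate its adjusted p was 0.074.

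Genes of the low-oxygen response were higher at day 28. Of 20 measured genes of glycolysis and hypoxia, 5 were higher and none lower, 12 had every day 28 array above every day 14 array and the median difference was 0.40. The mean of the list was 9.37, 9.18, 9.11 and 9.21 at day 28, against 8.82, 8.75, 8.77 and 8.68 at day 14, and 8.36 to 8.83 in intact rats. Carbonic anhydrase 9 (Car9), which regulates pH outside hypoxic cells, had 9.23, 8.77, 8.70 and 9.11 at day 28 against 7.84, 7.82, 7.25 and 7.33 at day 14. The groups stood apart by 1.39 (SE 0.18, adjusted p = 0.0031), 2.63-fold higher, and the call held without any 1 of the 8 arrays. Egln3, a prolyl hydroxylase that marks hypoxia-inducible factors for decay and is itself induced by them, had 10.03, 9.54, 9.40 and 9.77 at day 28 and 8.00, 8.42, 8.41 and 7.41 at day 14 (difference 1.62, SE 0.29, adjusted p = 0.021).

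Vegfa, the main signal for vessel growth, measured 10.19, 10.10, 10.07 and 10.10 at day 28 and 9.73, 9.51, 9.55 and 9.37 at day 14 (difference 0.58, SE 0.09, adjusted p = 0.012). The glucose transporter Slc2a1 differed by 0.74 (adjusted p = 0.028) and hexokinase 2 (Hk2), which traps glucose in the cell, by 0.37 (adjusted p = 0.028). Stanniocalcin 1 (Stc1), a secreted protein known to be induced by low oxygen and not on the list, was higher by 0.52 (adjusted p = 0.013). Other enzymes of glycolysis overlapped between the groups. Lactate dehydrogenase A (Ldha) had 9.06 ± 0.12 at day 28 and 9.10 ± 0.34 at day 14, phosphoglycerate kinase (Pgk1) 9.63 ± 0.06 at day 28 and 9.58 ± 0.31 at day 14, and glucose phosphate isomerase (Gpi) 11.88 ± 0.05 at day 28 and 11.91 ± 0.18 at day 14. The hypoxia genes Hilpda (difference -0.15) and Adm (difference 0.21) overlapped too, with adjusted p of 0.76 and 0.55.

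Several of these calls were not made in every fit without 1 array. Stc1 was called in all 8 fits without 1 array and Vegfa in 7 (adjusted p = 0.051 without day 14 replicate 4). Egln3 was called in 4 (adjusted p = 0.077 without day 28 replicate 1), and Slc2a1 and Hk2 in 1 each (adjusted p = 0.10 and 0.10 without day 28 replicate 1). With the muscle covariate Car9 was called (adjusted p = 0.025) and Vegfa (0.063), Egln3 (0.054), Slc2a1 (0.14), Hk2 (0.11) and Stc1 (0.077) were not.

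The promoters of Car9 and Slc2a1 are shown since hypoxia-inducible factors bind a core of ACGTG, and these are the 2 of the 5 called members of the list with such a match. Each is the stretch of 250 bases before to 50 bases after the start of the gene in RefSeq (build GRCr8), with the match on either strand in capitals, for Car9 at chr5:62558774-62559073 and for Slc2a1 at chr5:138002272-138002571, both on the plus strand.
Car9: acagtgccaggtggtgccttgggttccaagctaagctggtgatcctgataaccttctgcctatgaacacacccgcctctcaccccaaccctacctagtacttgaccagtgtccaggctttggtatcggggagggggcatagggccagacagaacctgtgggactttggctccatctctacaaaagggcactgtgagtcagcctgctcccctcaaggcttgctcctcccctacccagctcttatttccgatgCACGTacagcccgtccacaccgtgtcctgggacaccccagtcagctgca
Slc2a1: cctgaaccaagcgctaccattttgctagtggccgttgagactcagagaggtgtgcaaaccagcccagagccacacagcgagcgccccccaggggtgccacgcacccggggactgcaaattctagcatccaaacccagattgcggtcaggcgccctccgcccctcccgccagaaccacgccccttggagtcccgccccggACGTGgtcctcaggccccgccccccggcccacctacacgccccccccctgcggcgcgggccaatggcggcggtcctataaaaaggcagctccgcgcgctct
The match begins 2 bases after the start of Car9 and 51 bases before that of Slc2a1. ACGTG on either strand was in 19.7% of all 27457 promoters of this length, in 10.9% of the 46 genes called higher that had a promoter in the table and in 9.43% of the 53 called lower. The motif was added after the hypoxia genes had been seen. Another motif searched was AGGTCA, the core of the sites of nuclear receptors such as PPARG. Among genes called lower in the lists of fat cells and their lipids, 2 of 10 promoters held it, those of Pck1 and Retn. It was in 22.6% of the genes called lower, 17.4% of those called higher and 15.7% of all promoters. In the same order (called lower, called higher, all), TGACTCA, bound by AP-1, was in 9.43%, 4.35% and 4.53%, CAGCTG, an E-box, in 15.1%, 13.0% and 15.1%, and TATAAA in 13.2%, 13.0% and 14.3%, all counted on both strands, with no motif inside another. These shares describe the letters in the window and say nothing of binding.

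Among early response genes, which are switched on within minutes by stress, load or growth factors, Nr4a3, Nr4a2, Atf3, Fosb and Dusp1 were higher at day 28. Of 27 measured immediate-early and heat shock genes 5 were higher and none lower, with a median of 0.08. Nr4a3 had 9.32, 9.00, 9.19 and 9.08 at day 28 and 8.04, 7.71, 8.17 and 8.22 at day 14 (difference 1.12, SE 0.14, adjusted p = 0.0031). Its relative Nr4a2, an orphan receptor like it, had 10.84, 10.89, 10.20 and 10.28 at day 28 and 9.75, 9.53, 9.93 and 9.76 at day 14 (difference 0.81, SE 0.15, adjusted p = 0.024). The third receptor, Nr4a1, overlapped, with day 28 replicate 3 (9.18) below day 14 replicate 3 (9.40), and did not pass (difference 1.05, adjusted p = 0.068).

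The stress-induced repressor Atf3 had 9.65, 9.60, 9.16 and 9.58 at day 28 and 8.64, 8.24, 8.61 and 8.42 at day 14 (difference 1.02, SE 0.15, adjusted p = 0.0058). The AP-1 subunit Fosb differed by 0.93 (adjusted p = 0.043) and Dusp1, a phosphatase that turns off MAP kinases, by 0.58 (adjusted p = 0.030). Outside the list, Klf4, a transcription factor of differentiation, was higher by 0.66 (adjusted p = 0.013). The neuronal activity gene Arc and the salt-inducible kinase Sik1 were higher by 0.52 (adjusted p = 0.041, called in none of the 8 fits without 1 array, adjusted p up to 0.14 without day 28 replicate 1) and 0.49 (adjusted p = 0.026, called in 3 fits, adjusted p up to 0.089 without day 14 replicate 4). Fos had 9.71 ± 0.31 at day 28 and 9.26 ± 0.31 at day 14 (adjusted p = 0.37), Egr1 11.49 ± 0.28 at day 28 and 11.35 ± 0.12 at day 14, and Junb 9.88 ± 0.17 at day 28 and 10.04 ± 0.19 at day 14, with overlap in each.

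Of 16 clock genes 2 were higher and none lower. Per1, a repressor within the clock that also responds to glucocorticoids and cAMP, had 9.23, 8.62, 9.01 and 9.32 at day 28 and 7.96, 7.85, 8.07 and 8.17 at day 14 (difference 1.03, SE 0.15, adjusted p = 0.0054). Day 28 did not pass the test against intact rats (difference -0.22, adjusted p = 0.39), and day 14 was below them (-1.25, adjusted p = 6.7e-05). Rora, a receptor that activates Bmal1, differed by 0.60 (SE 0.09, adjusted p = 0.0080). Nr1d1, its opponent, had 10.63 ± 0.52 at day 28 and 10.76 ± 0.20 at day 14, and Per3 8.30 ± 0.28 at day 28 and 8.32 ± 0.14 at day 14. The hour at which the rats were killed is not given in the sources used here, so the part of the time of day was not tested. Nr4a3, Atf3, Per1 and Rora were called without any 1 of the 8 arrays, Klf4 in 6 fits (adjusted p = 0.057 without day 14 replicate 4), Nr4a2 in 3, Dusp1 in 2 and Fosb in 1. Without day 28 replicate 1 the adjusted p was 0.082 for Nr4a2, 0.11 for Dusp1 and 0.12 for Fosb.

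Cartilage markers were mostly higher at day 28 in value, but only 1 of 27 passed the test. Of the 27, 24 differed upward with a median of 0.60, and 10 lay above day 14 on every array. The list mean was 8.94, 8.54, 8.84 and 8.17 at day 28, against 8.11, 7.98, 7.51 and 7.75 at day 14, and 8.98 to 9.46 in intact rats, so that days 28 and 14 stood apart by a narrow margin. Scrg1, a secreted peptide of chondrocytes and their progenitors, had 9.22, 9.62, 9.12 and 8.70 at day 28 and 8.08, 7.67, 6.46 and 6.58 at day 14 (difference 1.97, SE 0.36, adjusted p = 0.028), 3.91-fold higher. The call was made in 3 of the 8 fits without 1 array, with a difference between 1.72 and 2.26 and an adjusted p of up to 0.11 (without day 14 replicate 4), and with the muscle covariate the adjusted p was 0.14.

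Clec3a, a cartilage lectin, had the largest positive difference named here, at 10.71, 10.49, 10.79 and 9.48 on the day 28 arrays and 8.99, 8.43, 6.20 and 7.57 on the day 14 arrays, which do not overlap. Day 14 replicate 3 was the lowest, and the difference of 2.57 (SE 0.59, 95% interval 1.32 to 3.82) had an adjusted p of 0.076. Type II collagen (Col2a1), the main fibre of cartilage, had 11.14, 10.44, 11.46 and 9.78 at day 28 and 9.83, 8.99, 7.36 and 9.00 at day 14, and overlapped (difference 1.91, SE 0.66, adjusted p = 0.28). The matrix proteins Chad (1.60, adjusted p = 0.12), Ucma (1.28, adjusted p = 0.070) and Hapln1 (1.29, adjusted p = 0.34) did not overlap and did not pass. Chondromodulin (Cnmd), which keeps vessels out of cartilage, and type X collagen (Col10a1), the collagen of hypertrophic chondrocytes, overlapped at differences of 1.53 (adjusted p = 0.37) and 1.76 (adjusted p = 0.32), and Sox9, the master transcription factor of chondrocytes, differed by 0.37 (adjusted p = 0.17). Against the direction of the list, Cytl1, a small protein made by chondrocytes, had 7.33, 7.20, 7.65 and 7.13 at day 28 and 8.07, 7.85, 8.20 and 7.74 at day 14 (difference -0.64, adjusted p = 0.14). Day 14 replicate 3, the lowest array in Clec3a, Col2a1 and Hapln1, was also the highest in muscle markers.

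Single genes of bone and matrix were higher at day 28, outside the lists for these tissues. Osteoprotegerin (Tnfrsf11b), the decoy receptor that stops RANKL from forming osteoclasts, had 9.06, 9.09, 8.97 and 9.04 at day 28 and 8.28, 8.18, 8.32 and 8.07 at day 14 (difference 0.82, SE 0.09, adjusted p = 0.0011). Prolyl 3-hydroxylase 2 (P3h2), which modifies collagen chains, had 9.87, 9.96, 9.83 and 9.54 at day 28 and 8.70, 8.76, 8.47 and 8.34 at day 14 (difference 1.23, SE 0.15, adjusted p = 0.0020). Both were below intact rats at day 28, with differences of -0.90 (adjusted p = 1.4e-05) for Tnfrsf11b and -1.01 (adjusted p = 0.00029) for P3h2, and were further below at day 14, with differences of -1.73 (adjusted p = 1.5e-07) and -2.24 (adjusted p = 7.5e-07). Cemip, which takes part in the breakdown of hyaluronan, had 10.18, 10.07, 9.96 and 9.98 at day 28 and 9.19, 8.96, 8.95 and 9.11 at day 14 (difference 0.99, SE 0.14, adjusted p = 0.0048). Unlike these 2 it was above intact rats at both times, by 1.48 at day 28 (adjusted p = 6.2e-06) and 0.49 at day 14 (adjusted p = 0.024).

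Of 38 measured genes of WNT signalling 2 were higher and none lower, with a median of 0.14. The ligand Wnt16, known from cortical bone and injured cartilage, had 6.80, 6.87, 6.99 and 7.23 at day 28 and 6.11, 6.21, 6.26 and 6.28 at day 14 (difference 0.76, SE 0.10, adjusted p = 0.0032). Axin2, a target and feedback inhibitor of the pathway, differed by 0.38 (adjusted p = 0.048), a call that no fit without 1 array kept (adjusted p up to 0.16, without day 14 replicate 4). The secreted inhibitors pointed in opposite directions without being called. Wif1 differed by 1.02 (adjusted p = 0.16), Sfrp1 by -0.91 (adjusted p = 0.079) and Sfrp2 by -0.76 (adjusted p = 0.076), each with no overlap. Fstl3, which binds and blocks activins, was the 1 called gene of 34 in the TGF-beta and BMP family, with 9.04, 9.05, 9.11 and 9.16 at day 28 and 8.34, 8.39, 8.41 and 8.38 at day 14 (difference 0.71, SE 0.11, adjusted p = 0.0080). Inducible nitric oxide synthase (Nos2) was higher by 0.60 (adjusted p = 0.0084). Tnfrsf11b, P3h2, Cemip, Wnt16, Fstl3 and Nos2 were each called without any 1 of the 8 arrays, and with the muscle covariate (adjusted p between 0.0056 for Tnfrsf11b and 0.049 for Nos2).

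**Figure D4:**
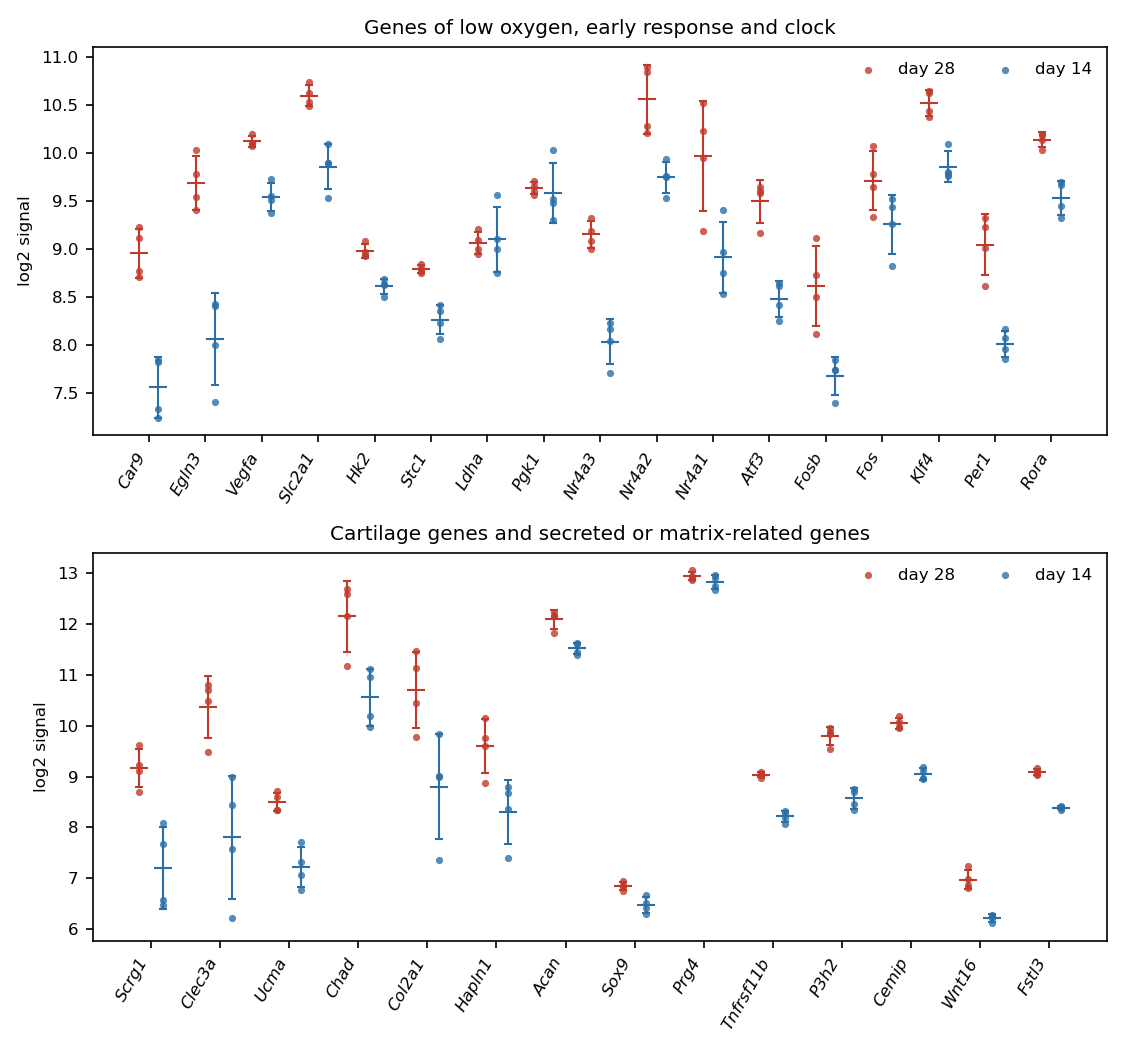
Log2 signal of 31 genes on each of the 4 day 28 arrays (red) and the 4 day 14 arrays (blue), with means (horizontal bars) and SD (error bars); the upper panel holds genes of low oxygen, early response and clock, the lower panel cartilage and secreted or matrix-related genes. Tnfrsf11b, P3h2, Cemip and Fstl3 have narrow groups far apart, while Clec3a and Col2a1 differ more, by 2.57 and 1.91, with day 14 arrays spread over more than 2 log2 units.

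Matrix and growth factor genes were also found among the decreases. None of 27 fibrillar collagen and processing genes was called (median 0.17, with 9 above day 14 on every array), and neither were 21 matrix metalloproteinases and their inhibitors. Elastin (Eln), the elastic fibre protein, was lower, with 8.65, 8.08, 8.22 and 8.42 at day 28 and 9.02, 9.07, 9.10 and 8.84 at day 14 (difference -0.67, SE 0.11, adjusted p = 0.013), as was the collagen VI chain Col6a6 (-1.21, adjusted p = 0.0048). Fgf10, a mesenchymal growth factor, had 6.67, 6.28, 6.47 and 6.50 at day 28 and 7.37, 7.07, 7.39 and 7.66 at day 14 (difference -0.89, SE 0.13, adjusted p = 0.0054). Fgf23, the phosphate hormone of osteocytes, had 5.70, 5.88, 5.90 and 5.96 at day 28 and 6.66, 6.31, 7.12 and 7.33 at day 14 (fell by 1.00 at day 28, SE 0.18, adjusted p = 0.025) and was called in 2 of the 8 fits without 1 array (adjusted p = 0.088 without day 28 replicate 1). Itm2a, a membrane protein of chondrogenic and T cells, and Ramp1, a part of the receptor for the pain peptide CGRP, were lower, with differences of -0.80 (adjusted p = 0.0048) and -0.89 (adjusted p = 0.0054). Eln, Col6a6, Fgf10, Itm2a and Ramp1 were called in all 8 fits.

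Several genes of immune cells and cytokine signalling were lower at day 28, while lists of immune cell markers held few calls. No gene was called among 19 T and NK cell markers (median 0.05), and 1 of 20 macrophage markers was lower (median -0.06). That gene was Adgre1, the F4/80 antigen, with 8.13, 8.24, 8.25 and 7.98 at day 28 and 9.54, 8.83, 8.73 and 9.67 at day 14 (difference -1.04, SE 0.18, adjusted p = 0.016). The macrophage markers Cd68 (10.58 ± 0.20 at day 28 and 10.67 ± 0.27 at day 14) and Csf1r (10.96 ± 0.13 at day 28 and 10.90 ± 0.20 at day 14) overlapped. Klrk1, the activating NKG2D receptor of NK and T cells, was outside the list and had 6.96, 7.11, 6.77 and 6.81 at day 28 and 8.08, 7.93, 7.74 and 7.89 at day 14 (fell by 1.00 at day 28, SE 0.10, adjusted p = 0.00062). Aoah, a myeloid enzyme that disarms endotoxin, differed by -1.04 (adjusted p = 0.0054), and Slpi, an inhibitor of neutrophil elastase, by -1.12 (adjusted p = 0.010). The lectin-like receptor Klra2 (-0.63, adjusted p = 0.0079), the interferon-inducible Mnda of myeloid cells (-0.92, adjusted p = 0.0080), the endosomal nuclease Pld4 (-0.60, adjusted p = 0.0048) and the membrane protein Ms4a6bl1 (-0.66, adjusted p = 0.0053) were lower by less. Against intact rats Slpi differed by -0.04 at day 28 (adjusted p = 0.93) and by 1.07 at day 14 (adjusted p = 0.00081).

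Of 32 cytokines and chemokines 2 were lower and none higher, with a median of -0.24. Cxcl9, a chemokine induced by interferon-gamma that draws T cells, had 6.46, 6.20, 6.90 and 6.26 at day 28 and 8.18, 7.27, 7.72 and 7.60 at day 14 (difference -1.24, SE 0.18, adjusted p = 0.0057). Il33, an alarmin released from damaged cells, had 8.56, 7.46, 8.08 and 8.04 at day 28 and 8.97, 9.06, 9.45 and 9.16 at day 14 (difference -1.12, SE 0.19, adjusted p = 0.013). Its receptor Il1rl1 was lower as well, with a difference of -0.74 (adjusted p = 0.020). With Tlr1, a co-receptor for bacterial lipopeptides (-0.69, adjusted p = 0.023), it made up the 2 called genes of 23 that act in the Toll-like receptor and interleukin 1 pathways. Tlr2, the partner of Tlr1, overlapped (7.99 ± 0.05 at day 28 and 8.11 ± 0.28 at day 14).

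The inflammatory cytokine Il6 had 8.32, 6.44, 7.39 and 6.99 at day 28 and 8.40, 7.90, 8.67 and 9.55 at day 14 and overlapped (difference -1.34, adjusted p = 0.16), and Tnf had 7.01 ± 0.17 at day 28 and 6.91 ± 0.17 at day 14. Il1b and Ccl7 did not overlap and did not pass, at differences of -0.48 and -1.15 (adjusted p = 0.056 and 0.070). Of 27 interferon-stimulated genes 25 differed downward with a median of -0.34, none was called and 5 did not overlap, Ifit1 having the largest difference (-1.25, adjusted p = 0.15). Outside this list the interferon-induced GTPase Ifi47 was lower, with a difference of -0.76 (adjusted p = 0.0056). The apoptosis ligand Tnfsf10, the fibrinogen-like protein Fgl2, the nucleotide phosphatase Samhd1 and Ebi3, a subunit of IL-27 and IL-35, were lower, with differences of -0.90, -0.82, -0.77 and -0.89 (adjusted p = 0.029, 0.016, 0.029 and 0.013). Klrk1, Klra2, Aoah, Slpi, Mnda, Pld4, Ms4a6bl1, Cxcl9, Il33 and Ifi47 were called in all 8 fits without 1 array, Adgre1 and Il1rl1 in 5 (adjusted p up to 0.057 and 0.066, without day 28 replicates 4 and 1) and Tlr1 in 2 (up to 0.082, without day 14 replicate 4). Fgl2 was called in 7 of these fits (adjusted p up to 0.057, without day 28 replicate 4) and Ebi3 in 6 (up to 0.062, without day 14 replicate 4). Samhd1 and Tnfsf10 were called in 1 each (up to 0.11 without day 14 replicate 4 and 0.086 without day 28 replicate 2). With the muscle covariate Il33 was not called (adjusted p = 0.066), and the result of that fit is not listed here for the other immune genes. Of 99 called genes named in the whole text, 48 were called with it. The neutrophil markers named above overlapped between the groups, and 16 of 17 differed downward. Their part in these decreases was not tested beyond the covariate fit described above.

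A group of miRNA genes on chromosome 6 was lower at day 28. They lie in the imprinted region between Dlk1 and Dio3, where a long transcript of the maternal chromosome that includes Meg3 is cut into many miRNAs, which are known from development and regeneration. The cluster was singled out after 5 of its genes had been seen among the calls. Between Mir770 and Mir410 (GRCr8, chr6:134298084-134579838, plus strand) RefSeq lists 48 miRNA genes, and 44 had a probe set of 1 symbol. Of these 44, 5 were lower and none higher, 32 differed downward, 12 had every day 28 array below every day 14 array and the median difference was -0.21. The mature sequences of the 5 called genes are shown to compare their seeds (bases 2 to 8, in capitals), by which a miRNA pairs with its targets.
rno-miR-300-5p: uUGAAGAGagguuauccuuugu
rno-miR-300-3p: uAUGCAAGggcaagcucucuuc
rno-miR-323-5p: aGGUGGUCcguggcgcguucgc
rno-miR-323-3p: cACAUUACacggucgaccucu
rno-miR-377-5p: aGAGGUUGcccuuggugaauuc
rno-miR-377-3p: uGAAUCACacaaaggcaacuuuu
rno-miR-410-5p: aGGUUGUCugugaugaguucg
rno-miR-410-3p: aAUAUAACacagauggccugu
rno-miR-539-5p: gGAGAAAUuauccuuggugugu
rno-miR-539-3p: cAUACAAGgguaauuucuuuuc
No seed was shared among these 10 sequences, so the 5 genes cannot be grouped by target seed. Whether a probe set reads the precursor, the mature form or the long host transcript is not given in the sources used here.

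Mir323 had 5.28, 4.91, 4.83 and 5.30 log2 signal at day 28 and 6.22, 5.81, 6.89 and 6.61 at day 14 (difference -1.30, SE 0.21, adjusted p = 0.012). Mir539 had 5.00, 4.58, 4.13 and 4.61 at day 28 and 5.54, 5.57, 5.56 and 5.91 at day 14 (difference -1.07, SE 0.16, adjusted p = 0.0079). Neither overlapped, and Mir539 was called in all 8 fits without 1 array. Mir377 differed by -1.37 (adjusted p = 0.025), Mir300 by -1.14 (adjusted p = 0.034) and Mir410 by -1.01 (adjusted p = 0.038). Without day 14 replicate 4 the adjusted p was 0.052 for Mir323, 0.062 for Mir377, 0.13 for Mir300 and 0.11 for Mir410. Mir323 was called in 7 of the 8 fits, Mir377 in 3, and Mir300 and Mir410 in 1 each. With the muscle covariate Mir539 had an adjusted p of 0.033 and Mir323 of 0.074. All 5 genes were dim, with day 14 means from 5.05 (Mir300) to 6.38 (Mir323) against array medians of 6.57 to 6.69. The setting without dim probe sets kept those above the overall median on at least 4 of the 8 arrays. None of the 5 entered it, so these calls were not checked there.

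The genes of 1 symbol called lower lay at 1 end of the cluster, a split made after positions and values had been seen and not tested. Probe sets 17818443, 17818641, 17818655 and 17818665, without exactly 1 symbol, were also called lower (differences -0.96, -1.33, -0.88 and -0.96). They are numbered within the run of the cluster's probe sets, the first 2 between Mir136 of the first block and Mir379 of the second. Their positions were not known here, so they are in neither block. In the first block, 11 genes within 33.2 kb of its start, none was called, 3 differed downward and the median was 0.10. In the second block, 33 genes from 245.4 to 281.7 kb, the 5 were lower, 29 differed downward, 12 lay below day 14 on every array and the median was -0.40. Among 308 other miRNA genes with a sequence entry none was lower and 2 were higher, Mir23b (0.54, adjusted p = 0.045) and Mir212 (0.72, adjusted p = 0.039), and the median was 0.04. Mir23b was called in 1 of the 8 fits (adjusted p = 0.16 without day 14 replicate 4) and Mir212 in 2 (adjusted p = 0.14 without day 28 replicate 1). Against intact rats the 5 differed at day 28 by 0.04 (Mir323, adjusted p = 0.94) to 0.38 (Mir539, adjusted p = 0.15), and at day 14 all 5 were higher, by 1.12 (Mir410, adjusted p = 0.0016) to 1.61 (Mir377, adjusted p = 0.00051), over the same intact arrays. Meg3 had 7.67 ± 0.26 at day 28 and 7.89 ± 0.28 at day 14 (difference -0.22, adjusted p = 0.62), and the paternally expressed Dlk1 7.65 ± 0.37 at day 28 and 8.39 ± 0.36 at day 14 (difference -0.74, adjusted p = 0.20).

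**Figure D5:**
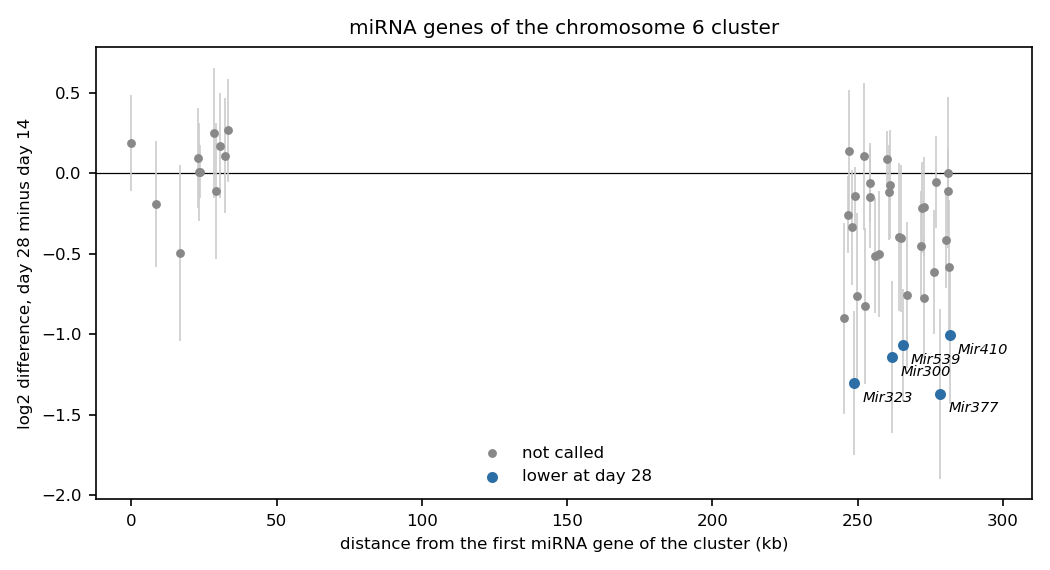
Log2 difference, day 28 minus day 14, of 44 miRNA genes against their distance in kb from the first gene of the cluster, with 95% intervals as vertical lines. The 5 genes called lower (blue) all lie in the second block, at 245.4 to 281.7 kb, where 29 of 33 genes are below 0, and the 11 genes of the first block scatter around 0.

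The other large increases lay in genes of several kinds. Meltf (melanotransferrin, an iron-binding surface protein of cartilage and melanoma) had 7.85, 7.73, 7.72 and 7.83 at day 28 and 6.56, 6.43, 6.28 and 6.57 at day 14 (difference 1.32, SE 0.23, adjusted p = 0.017). Il23r, a subunit of the IL-23 receptor, had 6.25, 6.59, 5.33 and 6.30 at day 28 and 4.91, 4.77, 4.93 and 4.70 at day 14 (difference 1.29, SE 0.26, adjusted p = 0.041). Both groups of each gene were apart, but Meltf was called in 4 of the 8 fits without 1 array and Il23r in 1. The adjusted p was up to 0.061 for Meltf, without day 14 replicate 3, and 0.14 for Il23r, without day 14 replicate 4. The guidance cue Sema3d and the adhesion protein Igsf9b were higher by 1.02 (adjusted p = 0.029) and 1.00 (adjusted p = 0.041), and were called in 2 of the 8 fits each (adjusted p up to 0.11 without day 14 replicate 4 and 0.14 without day 28 replicate 1). Steadier were Tiam2, an activator of the GTPase Rac, with 9.28, 9.43, 9.25 and 9.29 at day 28 and 8.57, 8.40, 8.40 and 8.21 at day 14 (difference 0.92, SE 0.10, adjusted p = 0.00099), Baiap2l1, which bends membranes with actin (0.92, adjusted p = 0.0054), and Usp53 (0.79, adjusted p = 0.0054), all called in the 8 fits without 1 array. CD73 (Nt5e), which makes adenosine, and Vegfc, the growth factor of lymph vessels, were higher by 0.72 (adjusted p = 0.031) and 0.39 (adjusted p = 0.037), but each was called in 2 of the 8 fits (adjusted p = 0.11 and 0.13 without day 28 replicate 1). Genes called higher and not described here include Prkcz, Ppp1r1b, Tspan2, Ano1, Nupr1, Ngef, Rab26, Hecw2, Hivep1, Pxylp1, Trim47, Lrrc23, Stac2, Mtmr7, Kctd16, Kif3c, Itpr3, Ankrd28, Pdlim5 and Abtb2.

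Among the other large decreases, myocilin (Myoc), a secreted glycoprotein found in muscle, nerve sheath and eye, had 6.63, 7.07, 7.44 and 6.65 at day 28 and 9.01, 8.31, 8.62 and 8.33 at day 14 (difference -1.62, SE 0.33, adjusted p = 0.041). It was called in 1 of the 8 fits without 1 array (adjusted p = 0.14 without day 28 replicate 1). Akr1c15, an aldo-keto reductase, differed by -1.42 (adjusted p = 0.014), the receptor for oxidised lipoprotein Olr1 by -1.41 (adjusted p = 0.025) and the leukocyte receptor Lilrb3 by -1.32 (adjusted p = 0.029). Akr1c15 was called in 6 of the 8 fits, and Olr1 and Lilrb3 in 2 each. The adjusted p was up to 0.066 for Akr1c15 and 0.11 for Lilrb3, without day 14 replicate 4, and 0.078 for Olr1, without day 28 replicate 3. Ksr1, a scaffold of the MAP kinase cascade, was lower, with a difference of -0.62 (adjusted p = 0.0064) in all 8 fits. The cholesterol exporter Abcg1 and the kynurenine enzyme Kmo, both of macrophages among other cells, were lower, with differences of -0.52 (adjusted p = 0.012) and -0.75 (adjusted p = 0.028). Both calls were lost without day 14 replicate 4 (adjusted p = 0.053 for Abcg1 and 0.10 for Kmo), and Kmo was called in 2 of the 8 fits. Genes called lower and not described here include Dcx, Sult1a1, Ly6c, Nabp1, Tspan7, Cadm3, Adamtsl1, Entpd2, Cd200r1, Nrk, Ctla2a, Ifitm1, Lrg1, Mal, Aplnr, Neto2, Pitpnc1, Csf2rb, Arhgap26 and Cst7.

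Set against intact rats, the 78 lower genes split into 3 main courses. At both times 31 were below intact rats, among them fat genes such as Adipoq, which differed from intact rats by -4.21 at day 28 (adjusted p = 3.4e-07) and -1.86 at day 14 (adjusted p = 0.00047). Another 22 were below intact rats at day 28 and not called at day 14, such as Klrk1, which differed by -0.92 at day 28 (adjusted p = 3.0e-05) and 0.08 at day 14 (adjusted p = 0.67). A further 21 were not called at day 28 and above intact rats at day 14, such as Il1rl1, with 0.08 at day 28 (adjusted p = 0.80) and 0.82 at day 14 (adjusted p = 0.00063), and 4 were called at neither time. Of the 62 higher genes, 30 were above intact rats at day 28 and not called at day 14, such as Car9, with 1.10 at day 28 (adjusted p = 0.00070) and -0.29 at day 14 (adjusted p = 0.31). In 16 the level was not called at day 28 and below intact rats at day 14, such as Per1. The other 16 were lower at both times (5), higher at both (4), higher at day 28 and lower at day 14 (1) or called at neither (6). The comparisons share the intact, day 28 and day 14 arrays and are given side by side for that reason.

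The largest difference and the smallest adjusted p belonged to probe sets without a gene name here. Probe set 17663218 had 5.30, 5.90, 4.96 and 5.49 log2 signal at day 28, against 9.48, 9.73, 9.42 and 9.33 at day 14, a difference of -4.08 (SE 0.52, adjusted p = 0.0031). It was 8.86 to 9.83 in intact rats, and 1 of the 4 day 2 arrays (replicate 3) was low too, at 6.33. Probe set 17781011 had 8.16, 8.76, 8.41 and 8.50 at day 28, against 10.35, 10.21, 9.98 and 10.16 at day 14, and its difference of -1.72 (SE 0.12) had the smallest adjusted p of all, 1.6e-05.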

How the data were processed

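The authors hybridised RNA to Affymetrix Rat Gene 2.0 ST arrays, and deposited background-corrected, quantile-normalised log2 values of 36685 probe sets (RMA, and oligo 1.36.1 in the submitters' processing notes), used here as deposited. Per the methods each array holds the pooled RNA of a pair of rats, whereas the labels name 1 animal, so p-values measure the spread between arrays. The files give no scan date or other batch, the number of arrays limits the precision, and depth has no meaning for arrays. Probe sets took gene names from the platform annotation: 18511 had 1 symbol, 575 several and 17599 none used here, and the brightest probe set stood for each of 18166 genes. Symbols were checked by gene ID against RefSeq (18394 found, 0 changed). Differences were fitted with limma 3.58.1 (R 4.3.3) in a model of 4 groups over 16 arrays, with Benjamini-Hochberg adjustment over all probe sets and a call at an adjusted p under 0.05. The fit was tested on simulated data with independent noise in each probe set. These held no variation shared by many probe sets, such as that of muscle or marrow, so the test cannot check the calls against it. The named genes are the 15 largest called differences in each direction, the 10 largest without overlap, up to 4 members of each gene list, the 5 largest with overlap and genes the study names, of which those with a described role were used, and the others were chosen after their values were seen. The members and gene lists were chosen with earlier results of these data known. Promoter and miRNA sequences are from RefSeq (GRCr8). The alternatives tried are given in the closing section.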

Additional observations from a re-analysis of the deposited data

Results flagged for a closer look

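In 15 of the 292 groups of 4 arrays of the genes described, 1 array lay farther from the other 3 than Dixon's 95% value allows, where chance gives about 1 in 20 groups (over all genes 5.09% at day 28 and 6.75% at day 14). At day 28, Fabp4 was lowest in replicate 2 (7.26, the nearest array at 7.67), which lies farther from the day 14 arrays, and Retn was highest in replicate 3 (6.59, nearest 6.29). Atf3 was lowest in replicate 3 (9.16, nearest 9.58), Tlr1 highest in replicate 2 (6.42, nearest 6.14) and Fgl2 lowest in replicate 4 (8.80, nearest 9.04).

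At day 14, replicate 4 was lowest for Acsl1 (8.34, nearest 9.03) and highest for Mnda (9.00, nearest 8.55), Nabp1 (9.19, nearest 8.90) and Mir539 (5.91, nearest 5.57). Replicate 3, the array with the highest muscle markers, was lowest for Cnmd (5.36, nearest 6.17) and Tnf (6.66, nearest 6.96) and highest for Mir377 (6.18, nearest 5.44). Replicate 1 was highest for Lep (6.43, nearest 6.08) and Klf4 (10.09, nearest 9.80) and lowest for Cd200r1 (7.18, nearest 7.42).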

How the results depend on the processing

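No probe set that was called changed its direction under any setting, but the number of calls varied, and the cause was not tested. Against 69 higher and 100 lower probe sets, there were 9 and 18 with only the 8 arrays of days 28 and 14 (4 and 13 over 2-fold, where all arrays gave 11 and 43), 167 and 176 without dim probe sets, 176 and 258 with array weights (18 higher over 2-fold), 22 and 39 with the muscle covariate (5 and 26 over 2-fold) and 118 higher with a trended, robust variance. A Welch t-test between days 28 and 14 called 1 higher and 5 lower at an unadjusted p under 0.0001 with a change over 2-fold. After Benjamini-Hochberg adjustment it called 0 and 0, also over 2-fold (lowest adjusted p 0.122, with 1923 higher and 1777 lower at an unadjusted p under 0.05). The paper names a t-test without its form, and used this threshold for MIA-treated against intact rats. Muscle and marrow covariates together, added after seeing the data, gave 26 and 60 (2 higher over 2-fold), and leaving out day 28 replicate 1 and day 14 replicate 3 gave 7 and 29 (3 and 22 over 2-fold). Leaving out 1 array gave 25 to 67 higher and 44 to 100 lower, and over 2-fold 3 to 14 higher and 27 to 44 lower. Cyclic loess (77 and 103), median centring (56 and 91) and the marrow covariate (58 and 127) stayed within 1.5 times. Replicate numbers did not pair the arrays (correlations of same-numbered deviations 0.12, 0.46, -0.10 and -0.04), and with the replicate block 66 and 76 were called. Of 99 of the called genes named, 19 were called with the 8 arrays alone, 48 with the muscle covariate, 82 with the marrow covariate and 92 with median centring. Of the 15 adipocyte markers, 6 were called lower with the 8 arrays alone and 9 with the muscle covariate.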

Other observations

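Other cell type lists held at most 1 called gene each between day 28 and day 14. Of 16 osteoblast and osteocyte markers 15 differed upward (median 0.36), and the one called was Fgf23, which was lower. Osteoclast markers (9 genes, median -0.04), endothelial markers (15 genes, median -0.04) and B and plasma cell markers (15 genes, median -0.04) held no call. Of 10 mast cell markers 1 was higher (Tpsb2) and of 12 Schwann cell and nerve markers 1 was lower (Mal).

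Genes of cell division and of mitochondria leaned downward without a call, whereas 54.5% of all 18166 genes differed upward. Of 33 genes of DNA replication and mitosis 32 were lower in value at day 28 (median -0.25), as were 27 of 29 genes of oxidative phosphorylation (median -0.20) and 25 of 26 of the tricarboxylic acid cycle and beta-oxidation (median -0.23). Of the last group 8 had every day 28 array below every day 14 array, as had 1344 of all 36685 probe sets. Muscle, rich in these mitochondrial genes, was lower in value too, and its part was not tested beyond the covariate fit described above. None of 16 cholesterol synthesis genes (median 0.02) and none of 24 neurotrophins and pain mediators (median 0.06) was called.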
